A study of Mus musculus with 12 samples.

Results

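Transcription factors that mark the layers of the cerebral cortex were measured in excitatory nuclei of MYT1L wild type (WT) and heterozygous (Het) mice. The 9 genes were chosen by symbol out of 55335 in the count matrices, and comprised 3 upper-layer factors (Cux1, Cux2 and Rorb) and 6 deep-layer factors (Bcl11b, Fezf2, Tbr1, Sox5, Foxp2 and Tle4). Each symbol matched a single row. Excitatory nuclei were those with at least 1 UMI (a counted transcript molecule) of Slc17a7, the vesicular glutamate transporter, and none of Gad1 or Gad2, the enzymes that make GABA. There were 7429 of them among the 33116 nuclei kept in 12 animals.

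The tissue was cortex at postnatal day 21 (P21) from 6 WT and 6 Het mice, 3 males and 3 females of each genotype, profiled by single-nucleus RNA sequencing (snRNAseq). Het mice carried the MYT1L S710fsX frameshift on a single Myt1l allele, and the line was bred against C57BL/6J. Every animal, WT included, had received an AAV9 mixture with a piggyBac transposase and an H2b-tdTomato reporter at birth for another assay. The animals came from several litters, and which animal came from which litter was not given in the sources used here, so litter cannot be told apart from animal. The germline allele affected every cell, so a difference in these nuclei cannot be assigned to the loss of the allele in the same cell.

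Cortical excitatory neurons are born in sequence, deep layers first, and each layer has its own projection targets. Cross-repression among these factors is a textbook feature of how the identities separate. Fezf2 and Bcl11b (CTIP2) direct subcerebral projection identity in layer 5, and Tbr1 specifies corticothalamic neurons of layer 6 and represses Fezf2. Sox5 acts in the timing of deep-layer neuron development. Foxp2 and the co-repressor Tle4 mark corticothalamic neurons, Cux1 and Cux2 shape dendrites and spines in layers 2 to 4, and Rorb patterns layer 4. MYT1L itself is a zinc finger factor of postmitotic neurons that acts mainly as a repressor, and the heterozygote was compared with WT to ask whether layer identity was altered in juvenile cortex.

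The median excitatory nucleus had 3378 to 3695 UMIs across the animals. An animal contributed 265 to 761 excitatory nuclei in WT and 407 to 1118 in Het. No barcode was shared between animals. The quality limits given in the study's methods kept 34860 of 78743 barcodes. The matrices held fewer barcodes than the nuclei the study states it kept after the same limits, so the nuclei analysed here are not the study's full set. The results were therefore also computed on the 27184 excitatory nuclei present when the upper limits, the genes-to-UMI ratio and the doublet step were not applied, called here the nuclei without upper limits. Between 1.65% and 4.33% of the gated nuclei of an animal fell in clusters with glial, GABAergic or vascular markers.

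Myt1l was read first as a check of the labels. Its normalised level, in CPM (a count scaled to a common library size, here with TMM factors), spanned 848 to 1073 in the WT animals, with a median of 997, and 1045 to 1156 in the Het animals, with a median of 1107. The Het level was thus not lower, with a log2 fold change of Het over WT of 0.16 (SE 0.059) that missed the threshold in edgeR's quasi-likelihood test (adjusted p = 0.453). A frameshift need not lower the transcript, so this level neither verifies nor contradicts the genotype labels. Gated nuclei made up 17.1% to 23.9% of the kept nuclei in WT and 20.2% to 25.6% in Het. Inside the gate, the level of Slc17a7 is fixed in part by the gate and is no check of it.

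The RefSeq promoters (GRCm38.p6, 250 bases before each start) were searched for AAGTT, the core letters that MYT1-family zinc fingers bind, on both strands. Entries were found for 8 of the 9 members, in 11 windows. The motif stood in 1 window each of Cux1, Bcl11b and Fezf2, beside 35.3% of the 32851 mouse promoters of the same length. The longer AAAGTTT was in none of the 11, against 4.20% of all promoters. All 3 matches in the 11 windows are shown, and a relation between a match and a level was not tested. Capitals mark the motif or its reverse complement, and each stretch is written 5′ to 3′ on the gene's own strand.
Bcl11b, chr12:108003528-108003552, minus strand: aacccggcgtAACTTcaagaagaca
Cux1, chr5:136565982-136566002, minus strand: ggaagggaaaAACTTggcttg
Fezf2, chr14:12345978-12346002, minus strand: aggccccccaAAGTTgtgaatcacc
In GENCODE M21 the Bcl11b stretch is in an exon, in the untranslated part, of 1 of 3 transcripts. The Cux1 stretch is exonic in 1 and intronic in the other transcripts of the 9 that span it, and the Fezf2 stretch is intronic in the 1 transcript that spans it. A match of 5 letters is frequent by composition and is not a binding site.

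The factors differed between the named types at P21, and most were highest in types of their own layers. Clusters of the gated nuclei were made without the 9 members and named from other marker genes. The names that resulted were intratelencephalic (IT) types of layers 2/3, 4/5 and 6, corticothalamic (L6 CT), near-projecting (L5 NP) and extratelencephalic (L5 ET) types, L6b, and dentate granule (DG) nuclei of the hippocampus, which the dissection still held. These names are "-like" because they rest on markers alone. A further 2360 nuclei in 13 clusters stayed unnamed. The L4/5 IT-like name covers clusters 4 and 7, whose marker scores were close to those of a second type, L2/3 IT in cluster 4 (1.31 against 1.26) and L5 IT in cluster 7 (1.0799 against 1.0941). The name came from the markers among their leading genes. Levels by type cover the named excitatory types only, without the clusters named for glial, GABAergic or vascular markers. They are plain CPM, as mean ± SD over the animals with at least 10 nuclei of the type, both genotypes together.

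Of the upper-layer factors, Cux1 and Cux2 were high in both IT types of layers 2 to 5, and Rorb in L4/5 IT-like nuclei only. Cux2 was at 299 ± 61.5 CPM in L2/3 IT-like nuclei (n = 12) and at 243 ± 74.1 in L4/5 IT-like nuclei (n = 12). The ranges of those 2 types overlapped, and every other named excitatory type had a mean of 7.02 CPM or less. In the unnamed clusters Cux2 ran from 0.959 CPM in cluster 22 to 340 in cluster 20. Cux1 was at 425 ± 93.1 CPM in L4/5 IT-like and 338 ± 54.6 in L2/3 IT-like nuclei (n = 12), again with overlapping ranges. Unlike Cux2 it had an intermediate mean in the deep types, from 33.9 CPM in L5 ET-like to 90.5 in L5 NP-like nuclei. Rorb was at 816 ± 178 CPM in L4/5 IT-like nuclei, and its lowest animal there (557) lay above every animal of the next type, L5 NP-like, at 70.1 ± 42.4. In L2/3 IT-like nuclei Rorb was at 30.7 ± 17.7 CPM.

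Among the deep-layer factors, Foxp2 was the most restricted. It stood at 1079 ± 137 CPM in L6 CT-like nuclei (n = 12), above every animal of L6b-like nuclei at 317 ± 140 (n = 11). Tle4 did not separate the types to this extent, with 602 ± 67.1 CPM in L6 CT-like, 574 ± 119 in L5 NP-like and 528 ± 158 in L6b-like nuclei, whose ranges overlapped. Tbr1 had its highest mean in L6 CT-like nuclei too, at 49.3 ± 12.04 CPM, followed by 22.1 ± 14.7 in L6 IT-like and 21.2 ± 11.3 in L4/5 IT-like nuclei, with overlapping ranges.

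Bcl11b was broad among deep types. Its mean was 236 ± 90.0 CPM in DG-like nuclei (n = 9), 200 ± 60.5 in L5 NP-like (n = 12), 169 ± 25.5 in L5 ET-like (n = 8), 160 ± 28.3 in L6 CT-like (n = 12) and 125 ± 51.0 in L6b-like nuclei (n = 11), each overlapping the next. It fell to 53.8 ± 21.04 CPM in L6 IT-like nuclei and was below 10 in both upper types. Fezf2 was at 65.7 ± 20.8 CPM in L5 NP-like nuclei, 26.6 ± 11.3 in L6 CT-like and 22.3 ± 27.5 in L5 ET-like nuclei, and was listed at 0 in all 9 animals with DG-like nuclei. Sox5 was present in every cortical type, from 1287 ± 221 CPM in L5 NP-like to 244 ± 51.4 in L4/5 IT-like nuclei, and was at 20.8 ± 19.9 in DG-like nuclei. Its long span holds 2 genes on the same strand and 5 antisense genes, and how the counting treated strand is not given in the sources used here, so its level may include reads of those genes. The same limit holds for Cux1 (3 same-strand genes and 1 antisense), Cux2 (2 antisense) and Foxp2 (1 same-strand). It also holds for the Myt1l level given above (2 antisense).

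**Figure D1:**
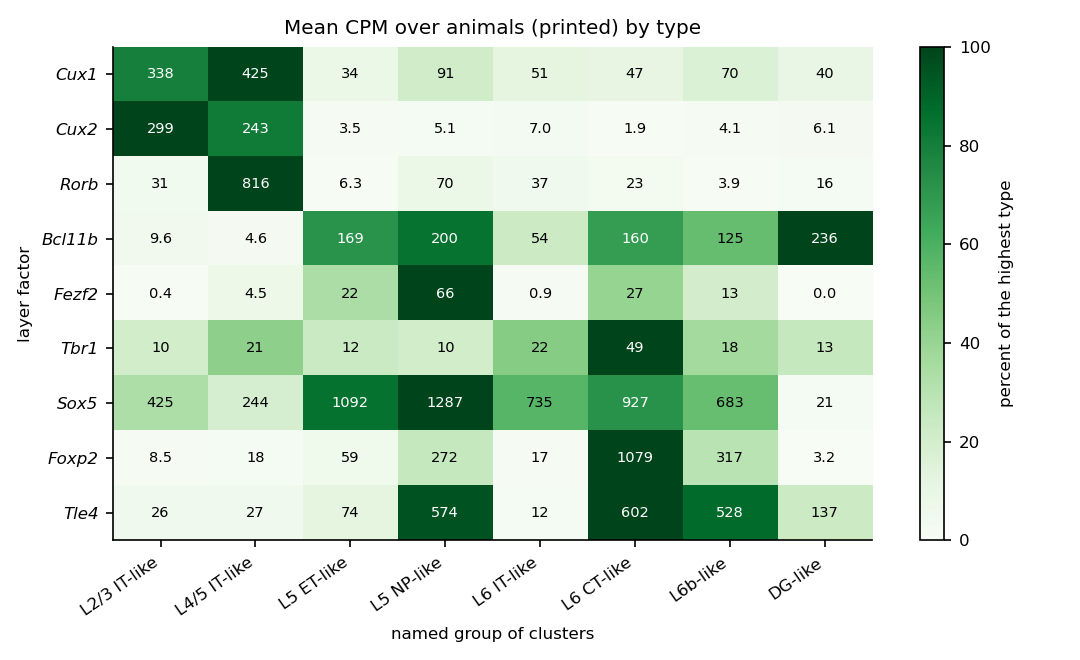
Level of each factor by named excitatory type, as the percent of that factor's highest type mean, computed from plain CPM averaged over the animals with at least 10 nuclei of the type. Cux1, Cux2 and Rorb are highest in the L2/3 IT-like or L4/5 IT-like column, and each other factor is highest in an L5, L6 or DG-like column. Tbr1 reaches 42.9% in the L4/5 IT-like column, and Sox5 has values in every cortical column.

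Across the 25 excitatory clusters, the correlation of log2(CPM + 5) is a description, since clusters share animals, depth and libraries. Cux1 and Cux2 followed each other most closely of the 36 member pairs (Pearson r = 0.91). Foxp2 and Tle4 (0.75), Fezf2 and Foxp2 (0.73) and Fezf2 and Tle4 (0.71) came next. The lowest values were those of Cux2 with Bcl11b (-0.69), Cux1 with Bcl11b (-0.58) and Cux2 with Tle4 (-0.58). Of the 5870 genes with a mean of at least 20 CPM over clusters, the gene most like each member was Cux2 for Cux1, Cux1 for Cux2, Gm20752 for Rorb (0.69), Glra2 for Bcl11b (0.75), Sulf2 for Fezf2 (0.78), Gdpd5 for Tbr1 (0.83), Otud7a for Sox5 (0.77), Garnl3 for Foxp2 (0.87) and Sept3 for Tle4 (0.77). The next most alike were Mapk4 and Prkg2 for Cux1, Mapk4 and Gm16867 for Cux2, Ap3m2 and A830036E02Rik for Rorb, Pde9a and Lmo3 for Bcl11b, Kif13a and Rnf13 for Fezf2, Zdhhc9 and Atl2 for Tbr1, Gm49678 and Sv2b for Sox5, Cdh18 and Reep1 for Foxp2, and Socs6 and Foxp2 for Tle4. Garnl3 was also a marker used to name L6 CT-like clusters.

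To ask whether Het nuclei differed in these factors, counts were summed per animal over all excitatory nuclei and compared by edgeR. Bcl11b was the only member that passed the threshold (adjusted p under 0.05 and absolute log2 fold change over 0.2), 1 of 9, beside 13 of 10712 genes (0.121%) over the whole table, 12 of them higher in Het. In a bulk sum, more nuclei of a type and more RNA per nucleus cannot be told apart. The median log2 fold change of the 9 members was 0.0752 against -0.0065 for all genes tested, and 8 members had a value above 0.

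Bcl11b spanned 71.7 to 90.6 CPM across WT animals (median 80.2), while Het animals spanned 94.6 to 127 (median 101). All 6 Het animals lay above all 6 WT animals, a separation in either direction that 0.588% of the genes tested also had. The log2 fold change was 0.40 (SE 0.083, 95% interval 0.23 to 0.57, adjusted p = 0.0448 in edgeR). The call was lost when sex was added as a term (adjusted p = 0.0504, with 0.084% of all genes called), when the doublet step was left out (adjusted p = 0.0519, 0.101% called), when only isocortical types were kept (0.0550, 0.143% called), and when the upper quality limits were lifted (log2 fold change 0.29, adjusted p = 0.0644, 0.228% called). The share of genes called was 0.55% of the 5271 with an adjusted p in DESeq2 and 0.112% of all genes with its size factors in edgeR, where Bcl11b passed. It was 0.0467% with a replicate block, 0.00951% in males alone and 0% in females alone and at Slc17a7 of at least 2 UMIs, where no member passed. On the nuclei without upper limits, Bcl11b ran from 49.3 to 64.3 CPM in WT and from 66.0 to 81.2 in Het, still without overlap, as for 0.712% of the genes tested. With single animals left out, the log2 fold change stayed between 0.34 and 0.43 and the adjusted p ran from 0.0265 to 0.169, so that the call held in 3 of the 12 cases, those without WT male 1, WT female 1 or Het male 1.

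Several other measures were read beside Bcl11b, and they did not all differ in the same direction. L6 CT-like nuclei, a type with high Bcl11b, made up 14.9% to 23.1% of excitatory nuclei in WT and 20.9% to 27.5% in Het. DG-like nuclei made up 1.68% to 3.02% in WT and 1.84% to 4.61% in Het. Other types with high Bcl11b had a lower mean share in Het or nearly the same. The mean was 2.25% in WT and 1.65% in Het for L5 ET-like nuclei. It was 3.06% and 2.68% for L6b-like nuclei, and 3.41% and 3.59% for L5 NP-like nuclei. Striatal projection neurons also contain much Bcl11b, and the summed level of their 8 markers ran from 939 to 1381 CPM in WT and from 1303 to 1452 in Het. Most of that sum was Pde10a (910 to 1338 in WT, 1248 to 1401 in Het), which cortical neurons also contain, whereas the defining striatal receptors Drd1, Drd2 and Adora2a were at 5.6 CPM or less in every animal and none of the 8 markers was at 0 throughout. The part of these measures in the Bcl11b difference was not tested.

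Cux2 had nearly the same fold change and a wider error. It spanned 60.2 to 103 CPM across WT animals (median 90.6), while Het animals spanned 102 to 142 (median 113). Of the 6 Het animals, 5 lay above the highest WT animal and all above the WT median. The log2 fold change was 0.40 (SE 0.106, 95% interval 0.18 to 0.62), which did not pass after adjustment over all genes (adjusted p = 0.179 in edgeR). On the nuclei without upper limits, Cux2 ran from 63.7 to 96.1 CPM in WT and from 101 to 121 in Het, without overlap, as for 0.712% of the genes tested. It passed there (log2 fold change 0.39, adjusted p = 0.0349, edgeR), beside 41 of 17983 genes (0.228%). Cux2 also passed when genes with low counts were kept in the test (log2 fold change 0.44, adjusted p = 0.00051), where 97 of 35873 genes (0.27%) were called. With DESeq2 on the nuclei without upper limits, 2 members were called, beside 2.35% of the 7398 genes with an adjusted p.

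Rorb had the opposite sign, with 120 to 194 CPM across WT animals (median 136), while Het animals spanned 92.5 to 174 (median 111). Only 1 of 6 Het animals lay above the WT median, but the ranges overlapped broadly, and the log2 fold change of -0.32 (SE 0.171) did not pass (edgeR, adjusted p = 0.768). It was -0.21 without WT male 3 and -0.45 without Het female 2. Cux1, the close relative of Cux2, had a value near 0. It spanned 136 to 213 CPM across WT animals (median 184), while Het animals spanned 163 to 199 (median 184), with a log2 fold change of 0.02 (95% interval -0.16 to 0.19).

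None of the remaining deep-layer factors passed. Sox5 had the narrowest spread, at 551 to 611 CPM in WT and 557 to 611 in Het, with a log2 fold change of 0.01 and a 95% interval of -0.10 to 0.12. Tle4 ran from 184 to 212 CPM in WT and from 174 to 227 in Het (log2 fold change 0.08, SE 0.068). With single animals left out, the Tle4 value ran from 0.046 to 0.12. Tbr1 ran from 14.9 to 26.7 CPM in WT and from 18.9 to 25.2 in Het (0.04, SE 0.140). Fezf2, which had 104 counts in all WT and 188 in all Het sums, ran from 7.45 to 12.8 CPM in WT and from 7.15 to 16.3 in Het (0.21, SE 0.197). The Fezf2 value was 0.13 without Het female 3 or Het male 1, and with other single animals left out it reached 0.30. Foxp2 ran from 176 to 310 CPM in WT and from 223 to 415 in Het (0.13, SE 0.166), where the highest value belonged to Het male 1. Without that animal the Foxp2 value was 0.0032, and without WT male 1 it was 0.047. Adjusted p-values of these 5 lay between 0.895 and 0.998 (edgeR).

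**Figure D2:**
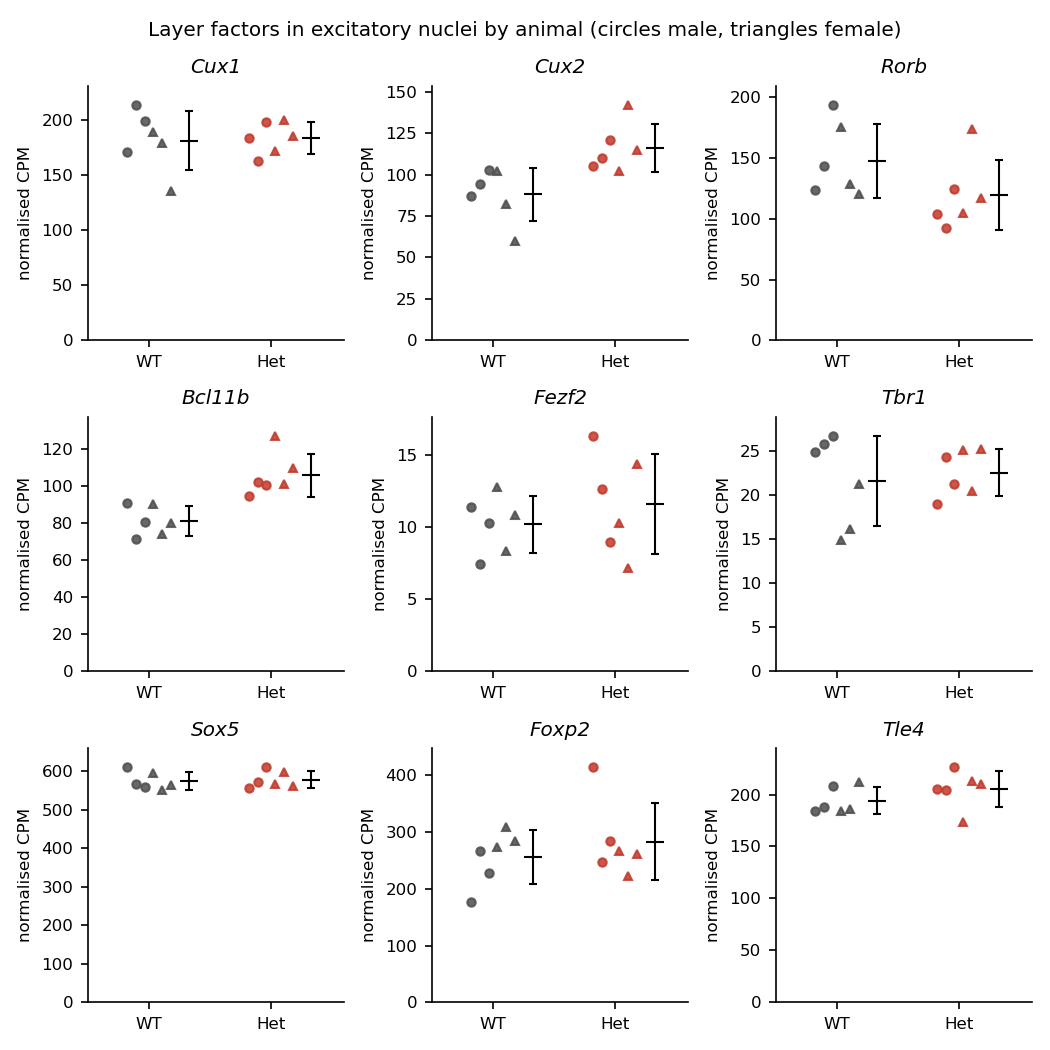
Normalised CPM (vertical axis, linear from 0) of each factor in all excitatory nuclei, a point per animal (circles male, triangles female), 6 WT in grey and 6 Het in red, with bars for mean ± SD. For Bcl11b the lowest Het animal (94.6) lies above the highest WT animal (90.6), for Cux2 5 of 6 Het animals do so, and the groups overlap broadly for the other factors.

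The sexes were compared through the interaction of sex and genotype, coded as the genotype effect in females minus that in males. No gene of 10712 passed in edgeR (0%), and 577 had an unadjusted p under 0.05 (5.39%). Tbr1 had an interaction of 0.63 (SE 0.260) and Foxp2 of -0.68 (SE 0.261), both with an adjusted p of 0.897. In males alone the log2 fold change of Foxp2 was 0.47 and in females -0.20, while that of Tbr1 was -0.23 in males and 0.40 in females. The Bcl11b fold change was 0.30 in males and 0.49 in females.

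**Figure D3:**
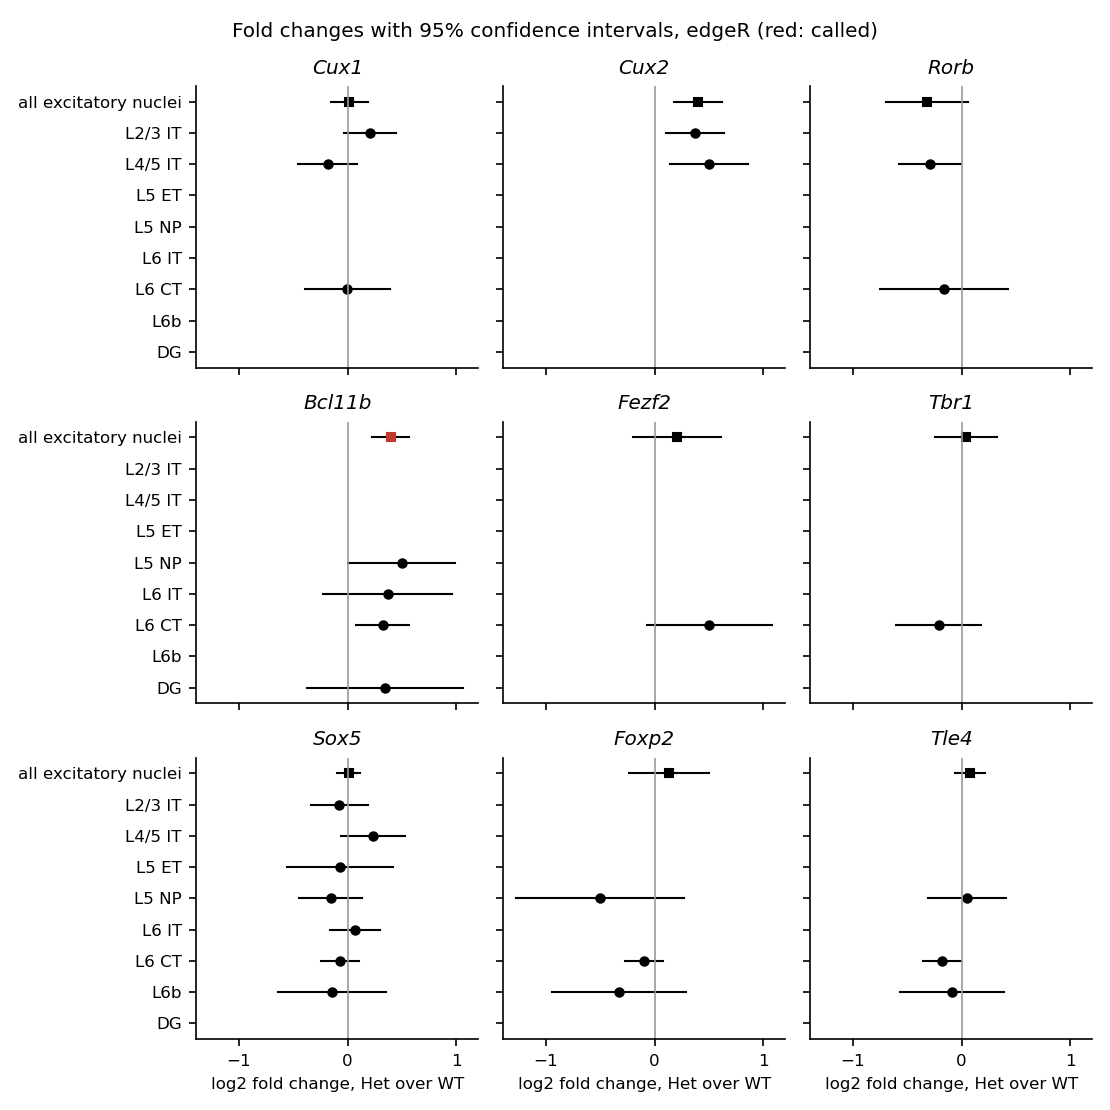
Log2 fold change of Het over WT (horizontal axis, with 95% intervals) for each factor in all excitatory nuclei and in the named types, from edgeR on summed counts, where factors below the count filter in a type have no point. In all excitatory nuclei Bcl11b and Cux2 both lie at 0.40 and only Bcl11b passed after adjustment. Within types no factor passed. The unadjusted intervals above 0 there are those of Cux2 in L2/3 IT-like and L4/5 IT-like and of Bcl11b in L6 CT-like and L5 NP-like nuclei. Those below 0 are Rorb in L4/5 IT-like and Tle4 in L6 CT-like nuclei.

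Counts were also summed within named types, so that the share of a type among all nuclei does not enter the value, though the mix of clusters within a type can. No member passed the threshold in any of the 8 named excitatory types tested. The background there was 0% of the genes tested in L4/5 IT-like, L5 NP-like, L6b-like and DG-like nuclei, 1 of 3937 genes in L2/3 IT-like (0.0254%), 2 of 2881 in L6 IT-like (0.0694%), 1 of 856 in L5 ET-like (0.117%) and 28 of 5048 in L6 CT-like nuclei (0.555%). In edgeR, 6 member values had an unadjusted p under 0.05 over these types, including 2 of 4 members in L4/5 IT-like and 2 of 8 in L6 CT-like nuclei, beside 7.15% and 8.82% of all genes there. With single animals left out, these counts ran from 1 to 2 in L4/5 IT-like and from 0 (without Het female 1) to 3 (without Het male 3) in L6 CT-like nuclei. Sums were small in most types, and only L2/3 IT-like, L4/5 IT-like and L6 CT-like nuclei exceeded 850 nuclei.

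Cux2 had a positive fold change in both named types in which it was high. In L2/3 IT-like nuclei it spanned 163 to 343 CPM across WT animals (median 270), while Het animals spanned 274 to 396 (median 324). All 6 Het animals lay above the WT median but 5 of them within the WT range. The log2 fold change was 0.37 (SE 0.131, adjusted p = 0.375, edgeR). In L4/5 IT-like nuclei the WT animals spread from 112 to 356 CPM (median 170) and the Het animals from 253 to 308 (median 269), a log2 fold change of 0.50 (SE 0.174, adjusted p = 0.392, edgeR). The 2 clusters of this type differ in Cux2, at 372 CPM in cluster 4 and 64.5 in cluster 7, and cluster 4 made up 46.9% to 70.4% of the type in WT and 45.0% to 63.4% in Het. In cluster 4 alone, Cux2 had a log2 fold change of 0.53 (SE 0.172, adjusted p = 0.254, edgeR), and in cluster 7 it had too few counts for the test (28 in WT, 59 in Het). On the nuclei without upper limits, Cux2 in L2/3 IT-like nuclei ran from 177 to 268 CPM in WT and from 262 to 330 in Het and passed (log2 fold change 0.40, SE 0.079, adjusted p = 0.0280, edgeR), beside 11 of 11120 genes (0.0989%). In L4/5 IT-like nuclei of that set the value was 0.53 (SE 0.144, adjusted p = 0.178, edgeR), beside 20 of 11153 genes called (0.179%).

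Cux1 and Rorb did not share this. Cux1 had a log2 fold change of 0.21 (SE 0.120) in L2/3 IT-like and -0.18 (SE 0.133) in L4/5 IT-like nuclei, the latter turning to 0.07 without the upper limits and to 0.33 (SE 0.285) in cluster 7 alone. With single animals left out, the L4/5 IT-like value of Cux1 ran from -0.26 to -0.072. Rorb in L4/5 IT-like nuclei, its main type, spanned 590 to 1090 CPM across WT animals (median 941), while Het animals spanned 538 to 948 (median 713). The log2 fold change was -0.29 (SE 0.138, adjusted p = 0.673, edgeR), and 1 of 6 Het animals lay above the WT median. It was -0.34 (SE 0.133) in cluster 4 alone and -0.15 (SE 0.163) in cluster 7 alone.

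Bcl11b had a positive value in each of the 4 types where it passed the count filter. In L6 CT-like nuclei it spanned 116 to 172 CPM across WT animals (median 141), while Het animals spanned 150 to 215 (median 172), where 3 Het animals lay above the highest WT animal. The log2 fold change was 0.32 (SE 0.121, adjusted p = 0.315, edgeR). It was 0.50 (SE 0.243) in L5 NP-like, 0.37 (SE 0.294) in L6 IT-like and 0.35 (SE 0.351) in DG-like nuclei, the last from 3 WT and 6 Het animals with 29 and 139 counts. The DG-like value rested on Het female 3 and was 0.0079 without it. The L6 IT-like value was 0.18 without WT female 3 and 0.62 without WT male 1. Without the upper limits, Bcl11b in L6 CT-like nuclei ran from 96.0 to 138 CPM in WT and from 142 to 166 in Het, without overlap, and it passed (log2 fold change 0.39, SE 0.080, adjusted p = 0.0189, edgeR), beside 55 of 9786 genes (0.562%). Of the genes tested there, 0.797% did not overlap between the genotypes. Besides Cux2 in L2/3 IT-like and Bcl11b in L6 CT-like nuclei, no member passed in a named type of that set, where the other shares of genes called were 0.254% in L6 IT-like, 0.0464% in L6b-like, 0.0136% in L5 ET-like nuclei and 0% in both DG-like and L5 NP-like nuclei.

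Of the 8 members tested in L6 CT-like nuclei, 2 had a value above 0, Bcl11b and Fezf2, and 6 a value below 0. Fezf2, which Tbr1 represses, had a log2 fold change of 0.50 (SE 0.287) and ran from 11.6 to 36.3 CPM in WT and from 16.9 to 49.0 in Het. Tbr1 had -0.21 (SE 0.192), with 36.8 to 72.5 CPM in WT and 31.9 to 56.5 in Het. Tle4 had -0.18 (SE 0.087, adjusted p = 0.563, edgeR), with 570 to 739 CPM across WT animals (median 627), while Het animals spanned 452 to 612 (median 585), and no Het animal lay above the WT median. Foxp2 had -0.10 (SE 0.087) and Sox5 -0.07 (SE 0.087). With single animals left out, Foxp2 ranged from -0.18 (without Het male 1) to -0.053 (without WT female 1) and Tbr1 from -0.31 (without WT female 3) to -0.13 (without WT male 3). The type pools clusters 0, 3 and 13, in which Tle4 was at 730, 425 and 491 CPM and Foxp2 at 999.9, 1410 and 280 CPM. Cluster 0 made up a median of 57.3% of the type in WT and 51.1% in Het, cluster 3 of 31.4% and 35.5%, and cluster 13 of 8.93% and 12.5%. Tle4 had -0.04 (SE 0.0996) in cluster 0 alone and -0.32 (SE 0.123) in cluster 3 alone, and Foxp2 had -0.12 and -0.13. The median over the 8 members tested in this type was -0.083, against -0.0052 for all genes.

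In L5 NP-like nuclei, Foxp2 had a log2 fold change of -0.50 (SE 0.364), which was -0.29 without WT male 2 or WT female 3 and -0.69 without Het male 1. Tle4 had 0.05 (SE 0.175). Fezf2 there had too few counts for the test (27 in WT, 32 in Het). Its levels there are therefore not compared. Sox5 lay between -0.16 and 0.23 over the 7 types tested.

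**Figure D4:**
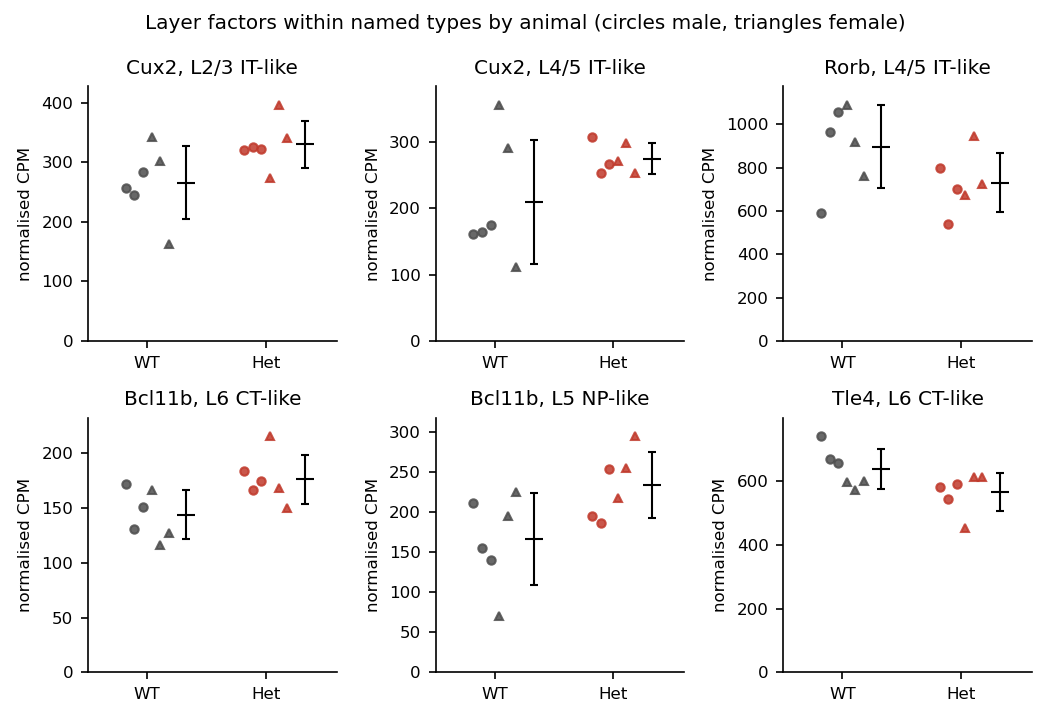
Normalised CPM (vertical axis, linear from 0) of 4 factors within named types, a point per animal (circles male, triangles female) with mean ± SD beside them. For Cux2 in L2/3 IT-like nuclei all 6 Het animals lie above the WT median of 270, and for Tle4 in L6 CT-like nuclei all 6 Het animals lie below the WT median of 627, while the ranges overlap in every panel.

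A list of 32 other transcription factors of cortical projection neurons was read in the same fits. Of the 27 tested in all excitatory nuclei none passed in edgeR, 5 had an unadjusted p under 0.05, beside 7.37% of all genes, and the list's median log2 fold change was -0.05. The 5 became 1 without WT male 3, 3 without WT female 3 and 9 without Het male 2. Within types, Ldb2, a cofactor of LIM-domain proteins, passed in L6 CT-like nuclei. It ran from 368 to 636 CPM in WT and from 316 to 431 in Het (log2 fold change -0.43, SE 0.100, adjusted p = 0.0276, edgeR), and the value was -0.16 without the upper limits. The call was also lost with a replicate block (adjusted p = 0.0507) and with no filter on low counts (0.118). Leaving out single animals kept that call in 6 of 12 cases, those without WT male 1, WT male 2, WT female 2, WT female 3, Het female 2 or Het female 3. Tshz2, a marker of L5 NP neurons, passed in L5 ET-like nuclei, with 146 to 271 CPM in 4 WT and 624 to 1303 in 4 Het animals (log2 fold change 1.96, SE 0.289, adjusted p = 0.00062, edgeR). These animals had 10 to 20 such nuclei each, and without the upper limits the value was 0.16 over all 12 animals, with 216 to 371 CPM in WT and 223 to 465 in Het. Of the 137 L5 ET-like nuclei, 65.7% kept this name in the larger set, which had 1072, so the 2 values do not describe the same class.

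Co-detection of an upper and a deep factor in the same nucleus was then compared, with every nucleus thinned to 1500 UMIs. No nucleus was shallower than that, so none was left out. The share is the expected value over all thinnings. Before the pairs, single factors were read: Cux2 was detected in 10.3% ± 1.59 of WT nuclei and 13.2% ± 1.14 of Het nuclei (SD, n = 6 each), and Bcl11b in 10.7% ± 1.07 and 13.2% ± 1.398. The Bcl11b ranges overlapped, and the Cux2 ranges were apart by a narrow gap, with a highest WT animal at 11.7% and a lowest Het animal at 11.9%. Of the 10712 genes tested, 0.439% had detection shares that did not overlap. Without thinning the means were 18.7% and 22.3% for Cux2 and 21.4% and 25.7% for Bcl11b. Rorb was detected in 11.3% ± 1.48 of WT and 9.97% ± 1.36 of Het nuclei.

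Detection needs a background, because free RNA puts UMIs into nuclei that do not express a gene. The nuclei used had at least 3 UMIs of oligodendrocyte markers and none of Slc17a7, Gad1 or Gad2 (1587, median 2501 UMIs against 3521 in excitatory nuclei). They had Bcl11b in 0.621%, Fezf2 in 0.108%, Tbr1 in 0.228% and Rorb in 1.25%, far below the excitatory shares of 12.3%, 1.59%, 3.38% and 10.5%. Foxp2 stood at 4.88% there against 18.9%, Tle4 at 8.85% against 20.1% and Sox5 at 5.09% against 45.3%. Cux1 (20.7%) and Cux2 (22.8%) were as frequent in these nuclei as in excitatory ones or more so, and so could not be read against them. For Cux2 the deep types serve instead, with shares from 0.36% in L6 CT-like to 1.18% in L5 ET-like nuclei. These are shares of Cux2 alone, and no background was computed for its pairs. Cux1 shares in the deep types ran from 6.09% in L5 ET-like to 11.9% in L5 NP-like nuclei, but its level there was intermediate, so no background was available for it. The oligodendrocyte rule leaves out nuclei with a UMI of Slc17a7, so its shares may lie below the background inside the gate. The 42 gated nuclei of the oligodendrocyte-marker cluster had Bcl11b in 1.47%, Fezf2 in 0%, Tbr1 in 2.26% and Rorb in 15.7%. Foxp2 was in 10.4% of them, Tle4 in 20.4% and Sox5 in 30.6%.

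None of the 18 pairs passed after adjustment over all 18. The share called was thus 0%, with 4 pairs at an unadjusted p under 0.05, and adjusted p from 0.214 to 0.957 (exact permutation test). Pairs of other genes were not tested, so this share and the shares of pairs called below have no background. The exact permutation test over all relabellings of the 12 animals cannot give a p below 0.00216. The Het mean was higher in 15 pairs and lower in 3, and the difference lay between -0.44 (Rorb with Sox5) and 0.60 percentage points (Cux2 with Sox5). The former ran from -0.627 without WT male 2 to -0.14 without WT female 1. The pairs share factors, so they are not independent of each other.

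The 4 pairs with the smallest p each included Cux1 or Cux2. Cux2 with Tbr1 was found in 0% to 0.382% of WT nuclei (mean 0.183% ± 0.138) and in 0.257% to 0.549% of Het nuclei (mean 0.401% ± 0.0937). Its two-sided p in the exact permutation test was 0.0130, or 0.214 after adjustment. The 0 was in WT female 2, whose 416 nuclei allow a share of up to 0.721% before thinning, by counting error only. The limit after thinning is lower and was not computed. Cux2 with Bcl11b was found in 0.0628% to 0.349% in WT (0.225% ± 0.100) and 0.293% to 0.596% in Het (0.391% ± 0.125, p = 0.0238, adjusted 0.214, same exact test). Cux1 with Bcl11b was at 1.20% ± 0.206 and 1.498% ± 0.245, and Cux2 with Foxp2 at 0.218% ± 0.138 and 0.372% ± 0.0964, both with an adjusted p of 0.214. In the first 2 pairs and the last, all 6 Het animals lay above the WT mean.

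Of the single factors in these pairs, Cux2 and Bcl11b had higher shares in Het, as given above. Tbr1 was at 3.19% in WT and 3.33% in Het, Cux1 at 19.8% and 20.9%, and Foxp2 at 18.3% and 19.9%, each with overlapping ranges. With independent detection, the share of a pair is the product of the 2 single shares, and every one of the 18 pairs fell below that product in both genotypes. The ratio of observed to product was 0.20 in WT and 0.23 in Het for Cux2 with Bcl11b, 0.57 and 0.55 for Cux1 with Bcl11b, 0.12 and 0.14 for Cux2 with Foxp2, and 0.56 and 0.91 for Cux2 with Tbr1. Within L2/3 IT-like nuclei the ratio of Cux2 with Bcl11b was 0.95 and that of Cux2 with Tbr1 was 1.15. For these 2 pairs the depletion seen over all nuclei was thus not seen within this type, and other pairs are not given there. Bcl11b was in 1.54% and Tbr1 in 1.41% of the 992 L2/3 IT-like nuclei, so these ratios rest on few nuclei. Whether more double-positive nuclei or more of each single factor lies behind the higher shares was not tested.

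On the nuclei without upper limits, 3 of the 18 pairs passed (16.7%), namely Cux2 with Bcl11b (0.286% in WT, 0.417% in Het), Cux2 with Tbr1 (0.201% and 0.324%) and Cux2 with Foxp2 (0.274% and 0.384%), each with an adjusted p of 0.0260 (exact permutation test). The doublet step was not applied to these nuclei, and a doublet can hold both factors of a pair. The part of doublets in these shares was not tested. With Slc17a7 of at least 2 UMIs, on 1821 nuclei, Cux1 with Bcl11b passed instead (1 of 18 pairs, 5.56%) and the difference of Cux2 with Tbr1 turned to -0.036 points.

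Any upper with any deep factor was found in 15.02% ± 1.36 of WT and 15.5% ± 0.828 of Het nuclei (SD, n = 6 each), with ranges of 13.6% to 17.6% and 14.5% to 16.9%. Without thinning these were 32.9% and 33.6%. Of the nuclei in this class 23.4% were L2/3 IT-like, 18.1% L4/5 IT-like and 13.2% L6 CT-like, while 29.7% were in unnamed clusters. The class was at 7.07% in the oligodendrocyte-marker nuclei and 21.1% in nuclei with GABAergic markers. A stricter class, Cux2 or Rorb with Fezf2, Tle4, Foxp2 or Tbr1, was at 2.40% ± 0.417 in WT and 2.71% ± 0.272 in Het, with all 6 Het animals above the WT mean and overlapping ranges. It was at 3.32% in the oligodendrocyte-marker nuclei, which are no background for this class because Cux2 was frequent in them. These classes are described without a test.

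Co-detecting nuclei did not fall evenly over types. Of nuclei with Cux2 and Tbr1, 43.7% were L4/5 IT-like, 30.1% were in unnamed clusters, 23.5% were L2/3 IT-like and 2.23% L6 CT-like. Those groups held 11.6%, 31.8%, 13.4% and 21.6% of all excitatory nuclei. Of those with Cux2 and Bcl11b, 56.9% were in unnamed clusters and 20.2% were L2/3 IT-like. Of those with Rorb and Sox5, 46.5% were L4/5 IT-like, 17.3% were in unnamed clusters and 12.6% were L6 CT-like.

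**Figure D5:**
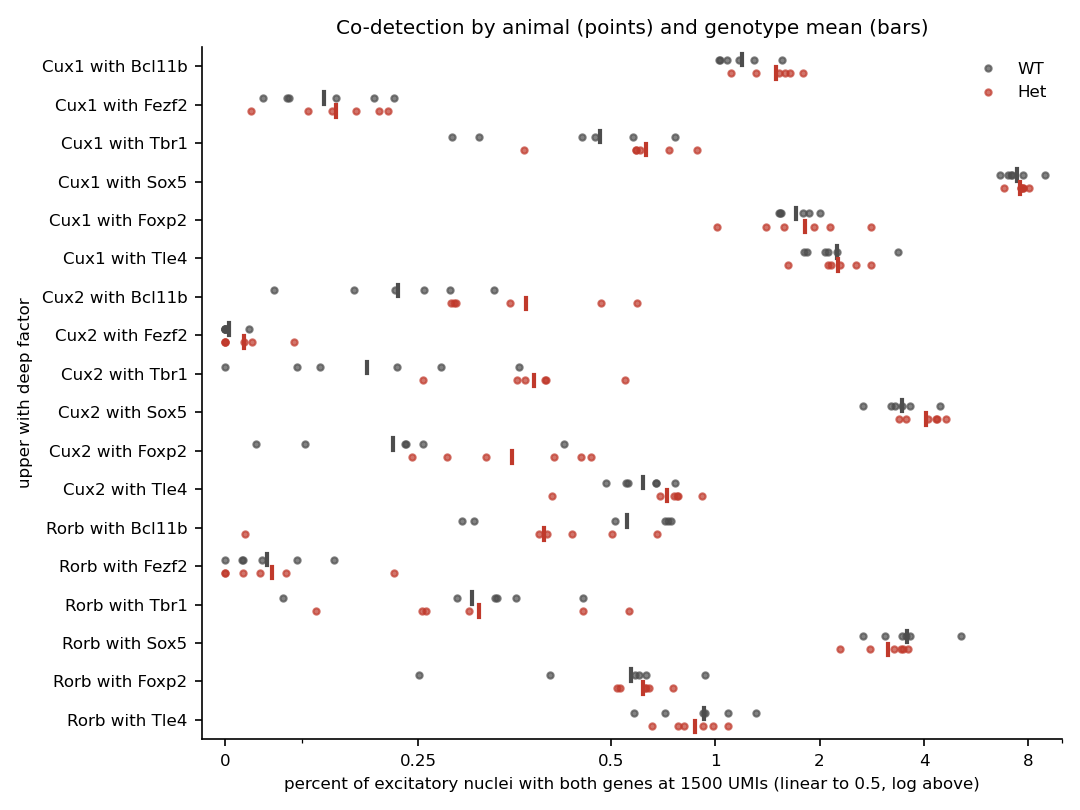
Percent of excitatory nuclei of an animal in which both factors of a pair were detected after thinning to 1500 UMIs, for the pairs of 3 upper and 6 deep factors, 6 WT and 6 Het animals, on an axis that is linear to 0.5% and logarithmic above, with bars at the genotype means. For Cux2 with Tbr1 the Het animals lie between 0.257% and 0.549% and the WT animals between 0% and 0.382%, and no pair passed after adjustment over the 18 pairs.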

How the data were processed

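Nuclei of 12 P21 mouse cortices were profiled by the authors with the Scale Biosciences kit and counted on mm10 with ScaleRna, and the submitters' processing notes name Seurat 4.3.0 and DESeq2 1.38.3. The deposited values are expected counts of UMIs per gene and nucleus, in which the authors' tool divides a UMI that fits several genes, so 92.6% of the entries of the first matrix were whole. No normalization had been applied. Total UMIs per animal ran from 23429386 to 59958572. Groups came from the sample labels. Of 55336 feature identifiers, 54587 matched GENCODE M21. The reporter transcript was left out.

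Limits followed the study's methods. A nucleus needed 800 to 6000 UMIs, between 300 and 3000 detected genes, a mitochondrial share of 1% or less, and a log gene number of 0.9 or more relative to its log UMI number. In each animal, the top 5% by Scrublet score were then removed (1744 nuclei). The authors' own cell labels were not used here. Gated nuclei were clustered with scanpy 1.11.5 and leidenalg 0.10.2 (3000 variable genes without the members, 50 components, 20 neighbours, resolution 1.5) into 29 clusters, and named from marker lists. Among marker lists scoring within 0.3 of a cluster's best, the one with most markers among the 10 leading genes gave the name, if its mean log2 marker score was at least 0.9, 3 markers were raised 2-fold and no other list had as many leading genes (or its score led by 1). These naming criteria were set after the clusters were seen. In the set without upper limits, every nucleus was named by the cluster profile it correlated with best. The share of nuclei that kept their name there ran from 65.7% in L5 ET-like to 99.5% in DG-like nuclei over the named excitatory types.

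Counts were summed per animal, rounded and tested with edgeR 4.0.16 in R 4.3.3 (TMM, filterByExpr, robust quasi-likelihood, genotype as the only term), with Benjamini-Hochberg adjustment over all genes. Animals needed 10 nuclei of a type. DESeq2 1.42.0, added terms, other filters and gates, and single animals left out were alternatives. Scripts were tested on simulated data. Levels of nuclei with few UMIs have counting error beside the spread between animals, and the limits given for shares of 0 cover counting error only. All tests are two-sided. The members, the marker lists and the list of other factors were chosen with earlier results of these data known. The text names the 9 members, Myt1l, Slc17a7, Gad1 and Gad2, the other factors that passed a test, the 3 genes most like each member, and markers of summed lists.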

Additional observations from a re-analysis of the deposited data

Results flagged for a closer look

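Of 127 groups of 4 to 10 animals examined, 11 held an animal far from the rest by Dixon's criterion at the 95% level (8.66%, where chance gives about 1 in 20). Causes were not tested.

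Het male 1 appeared in 4 of them. Its Foxp2 level was the highest of the Het animals in all excitatory nuclei, at 415.0 CPM against 223.0 to 285.1 in the others, in L6 CT-like nuclei, at 1351 CPM against 884.0 to 1053, and in L5 NP-like nuclei, at 488.9 CPM against 166.3 to 206.3. Its Tle4 level in L5 NP-like nuclei was the lowest, at 366.7 CPM against 595.4 to 658.1. This animal had 12 L5 NP-like nuclei and 112 L6 CT-like nuclei. Without it, the Foxp2 log2 fold change in all excitatory nuclei was 0.0032.

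Bcl11b in DG-like nuclei was highest in Het female 3, at 455.2 CPM against 152.8 to 247.8. Cux1 in L6 CT-like nuclei was lowest in Het female 2, at 28.73 CPM against 43.87 to 52.7.

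Among co-detection shares, Cux1 with Sox5 was lowest in Het female 3, at 6.791% of nuclei against 7.607% to 8.044%. Cux1 with Tle4 was highest in WT female 1, at 3.356% against 1.80% to 2.253%, and so was any upper with any deep factor, at 17.62% against 13.65% to 15.05%. WT female 1 had the fewest nuclei (265). Cux2 with Fezf2 was at 0.03029% in WT male 2 and at 0 in the other WT animals. Their 265 to 761 nuclei allow shares of up to 1.13% to 0.394% before thinning, by counting error only. Rorb with Fezf2 was highest in Het female 2, at 0.2184% against 0% to 0.0793%.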

How the results depend on the processing

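The number of members called in all excitatory nuclei was 1, and ranged from 0 to 1 with single animals left out. It was 0 with sex as a term, without the doublet step, with Slc17a7 of at least 2 UMIs (Bcl11b adjusted p = 0.238), in isocortical types only, in males only (0.657) and in females only (0.167), and 2 with no filter on low counts and with DESeq2 on the nuclei without upper limits (added after seeing the data). DESeq2 and its size factors kept the Bcl11b call (adjusted p = 0.0085 and 0.0460). The replicate numbers did not pair the animals (correlations of deviations -0.0975 to 0.061), and with a replicate block 0 members were called (Bcl11b 0.38, adjusted p = 0.102). The block could not be fitted in L5 ET-like nuclei. The other alternatives changed the adjusted p of Bcl11b between 0.00073 and 0.657, at log2 fold changes of 0.29 to 0.53. By named type the count was 0, and 2 without upper limits (also added). Called co-detection pairs were 0, with 3 without upper limits and 1 at Slc17a7 of at least 2, where the stricter class differed by -0.107 points.

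Directions turned for several values. Cux1 in all excitatory nuclei was -0.0899 in isocortical types and -0.11 in males, and ranged from -0.0597 to 0.0694 with single animals left out. Tbr1 was -0.39 at Slc17a7 of at least 2 and -0.23 in males, with a range of -0.0306 to 0.126. Sox5 was -0.0425 without upper limits and -0.0336 with DESeq2 there, with a range of -0.0068 to 0.0268. Foxp2 was -0.20 in females. Cux1 in L4/5 IT-like nuclei was 0.332 in cluster 7 alone (an alternative added after seeing the data, in which no member was called in the 6 clusters fitted) and 0.0717 without upper limits, and Tle4 in L5 NP-like nuclei -0.10 without upper limits, the latter ranging from -0.0581 to 0.166. At Slc17a7 of at least 2, the pairs with the most positive and most negative differences, Cux2 with Sox5 and Rorb with Sox5, turned to -0.281 and 0.435 points, and Cux2 with Tbr1 was -0.036. Rorb with Bcl11b was 0.032 points without upper limits. The causes were not tested. Depth limits Fezf2 and Tbr1 most, with 104 and 234 counts over all WT animals.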

Other observations

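Of the other projection neuron factors, those with the smallest p in all excitatory nuclei are given as values, a set that changed in size with single animals left out, and none passed after adjustment (edgeR, adjusted p from 0.465 to 0.580). Zeb2, a repressor of the SMAD pathway, ran from 423 to 468 CPM in WT and from 370 to 423 in Het, a log2 fold change of -0.14 (SE 0.055), with all 6 Het animals below the WT median. Nr2f1, an areal patterning factor, ran from 18.1 to 35.1 CPM in WT and from 16.2 to 25.5 in Het (-0.40, SE 0.148), again with all 6 Het animals below the WT median. Mef2c, an activity-dependent factor, ran from 549 to 859 CPM in WT and from 512 to 632 in Het (-0.25, SE 0.097). Tshz3 ran from 66.4 to 83.9 CPM in WT and from 79.1 to 92.0 in Het (0.19, SE 0.077), and Neurod2, a neuronal differentiation factor, from 16.1 to 34.1 in WT and from 21.5 to 36.3 in Het (0.37, SE 0.156).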
